A study of Mus musculus with 6 samples.

Results

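The genes described here are 34 genes of protein folding and the unfolded protein response in the endoplasmic reticulum (ER), a set listed by name, of 47643 genes in the count table. They were found by matching gene identifiers to mouse symbols, and all 34 of 34 matched. RNA was sequenced from skin mast cells in 6 libraries, 3 embryonic and 3 adult. All mice carried Cdh5CreERT2, a tamoxifen-activated Cre recombinase driven by the endothelial Cdh5 promoter, and had been given 4OHT, the active form of tamoxifen, at E7.5. The embryonic group was taken at E16.5 (days of embryonic development) and sorted as CD45+ F4/80- CD64- ckit+ ST2+, and the adult group was sorted as CD45+ F4/80- CD64- ckit+ Fcer1+. The age of the adults is not given, and the labels do not say whether cells were also gated on a lineage label. The embryonic libraries are titled PRIM and the adult ones DEF. Adult skin had its epidermis taken off with Dispase first. Age, sort gate, this step and any other difference that the titles mark go together and cannot be told apart. The labels name no animals, so p-values rest on how far these libraries spread, which may be technical variation only.

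Proteins bound for secretion enter the ER through a protein channel, the translocon. Inside they are bound by chaperones, sugar-binding lectins and enzymes that make disulfide bonds, and chains that fail to fold are returned to the cytosol and destroyed (ER-associated degradation). When unfolded chains build up, the sensors IRE1 (gene Ern1), PERK (gene Eif2ak3) and ATF6 switch on the unfolded protein response. IRE1 splices Xbp1 mRNA, PERK slows translation by phosphorylating eIF2alpha, and ATF6 is cut to release a transcription factor. Mast cells fill secretory granules with proteases and so send much protein through this route.

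Libraries held 34122162 to 49813523 counts. Levels are given in CPM (counts scaled to a fixed library total) after TMM scaling, and 3 counts, the limit that a count of 0 allows, equalled 0.0602 to 0.0879 CPM. Intervals and limits from counts cover counting error only. The 12 mast cell markers examined summed to 123834 to 135316 CPM in the embryonic and 63347 to 67355 in the adult libraries, and none was at 0. Of these markers, 5 were higher in embryonic cells, 4 were higher in adult cells and 3 did not pass the test. With 12 markers, these counts stand near the shares of all tested genes (31.2% and 31.7%). The sums were mostly Hdc, Cpa3 and Cma1, while Kit averaged 4968 ± 326 and 5392 ± 488 CPM in embryonic and adult cells, and Fcer1a, part of the receptor in the adult gate, averaged 5.84 ± 1.47 and 762 ± 186 (SD, n = 3 each). Embryonic replicate 3 stood apart in 2 marker sums. Keratinocyte markers summed to 59.3, 118 and 553 CPM in embryonic replicates 1 to 3 against 34.9 to 60.9 in adult libraries. Genes induced by tissue dissociation summed to 15629, 18689 and 31606 CPM in the embryonic and 39505 to 51761 CPM in the adult libraries. Adult replicate 3 stood apart as well. Fibroblast markers summed to 529, 473 and 97.0 CPM in adult replicates 1 to 3, and macrophage and dendritic cell markers to 1192, 988 and 421 CPM.

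Embryonic mast cells carried more RNA of most folding genes. Of the 34 genes, 22 were higher in embryonic cells, 5 were higher in adult cells and 7 did not pass the test (edgeR quasi-likelihood test, Benjamini-Hochberg adjusted p under 0.05 over 15111 genes). Among all tested genes the shares were 31.2% with more RNA in embryonic and 31.7% with more in adult cells, 63.0% in either direction. At 2-fold or more, 13 of the 34 were higher in the embryonic and 3 in the adult cells, where the shares of all tested genes were 17.2% and 20.8%. The median log2 difference, embryonic minus adult, was 0.65 over the 34 genes and -0.02 over all tested genes. The embryonic and adult libraries did not overlap for 26 of the 34 genes, 21 with embryonic and 5 with adult libraries on top, against 70.0% of all tested genes, 34.5% and 35.5% in the respective directions.

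Summed over the 34 genes, the level was 19234, 18549 and 18279 CPM in the embryonic libraries and 11092, 12136 and 11561 CPM in the adult ones. Every embryonic library was above every adult library, and the ratio of the means was 1.61. The ratio was 1.62 without Hspa5, the most abundant gene of the set by CPM. In bulk RNA, fewer cells of a type and less RNA per cell cannot be told apart. Fibroblasts also fold much secreted protein, and their markers summed to 574 to 715 CPM in the embryonic and 97.0 to 529 CPM in the adult libraries. Their part in these sums was not tested.

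**Figure D1:**
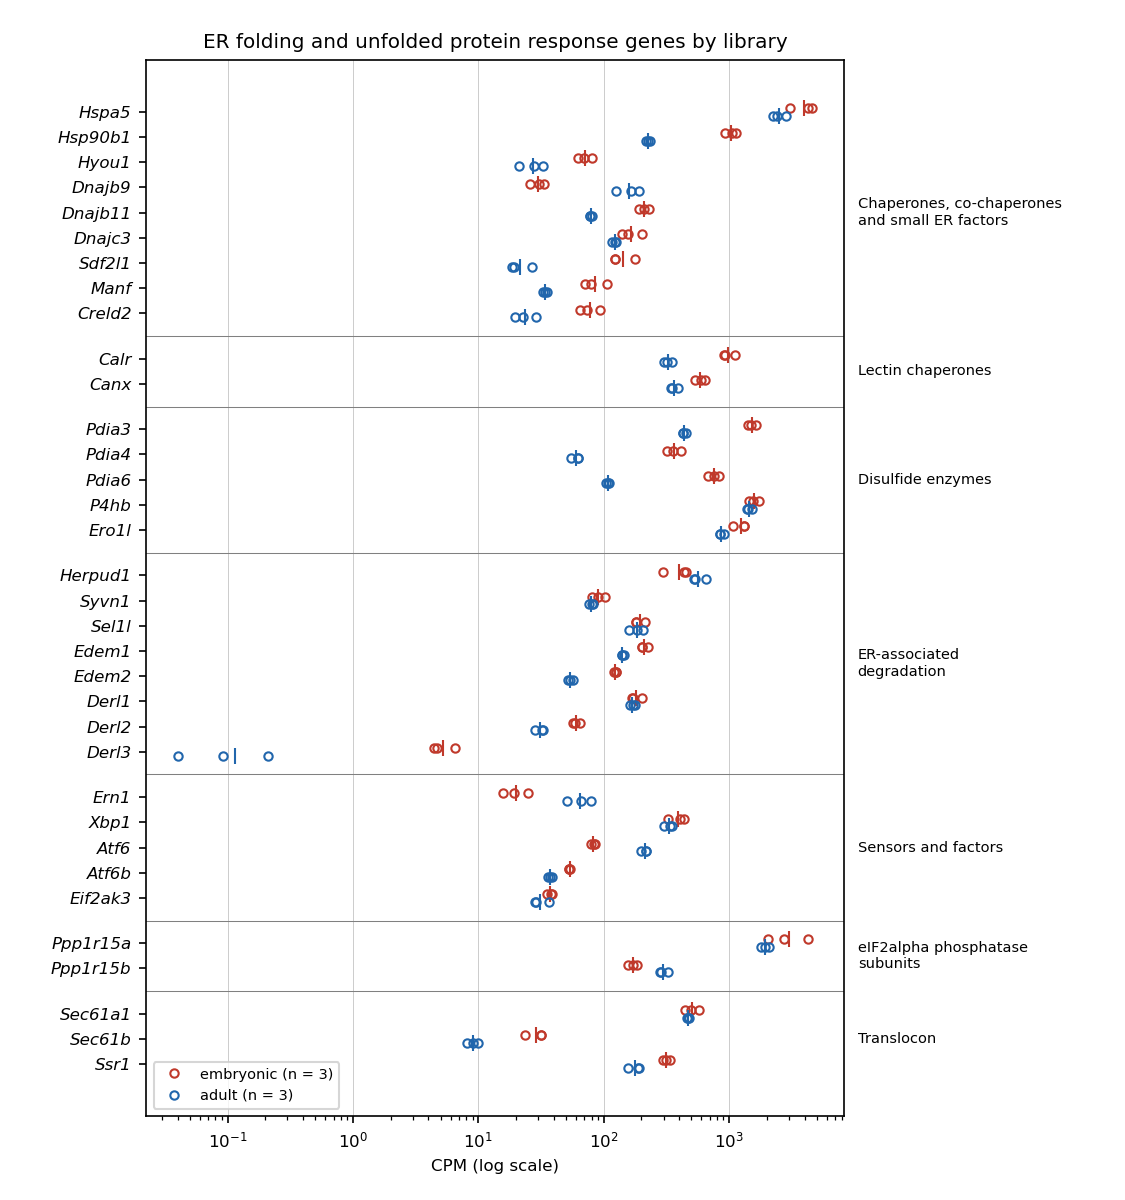
CPM (log scale) of each of the 34 genes, grouped by role, with 1 open circle per library and a tick at the mean of each group of 3, embryonic in red and adult in blue. Most chaperones, lectins and disulfide enzymes have the red circles to the right, and Dnajb9, Herpud1, Ern1, Atf6 and Ppp1r15b have the blue ones to the right.

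**Figure D2:**
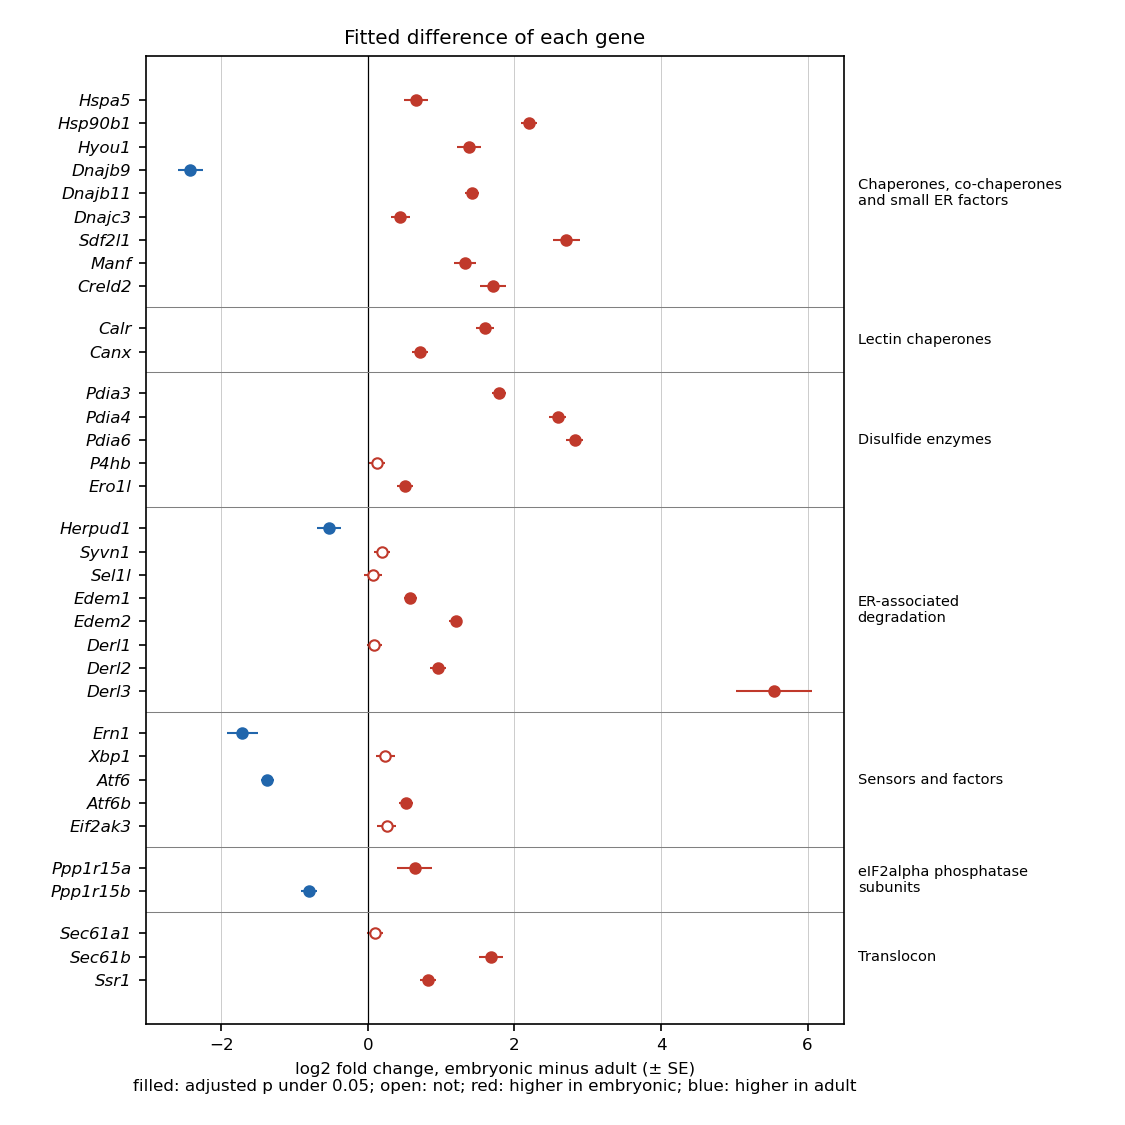
Log2 fold change, embryonic minus adult, of each of the 34 genes with its standard error from the edgeR fit, by role, red where embryonic and blue where adult cells were higher, filled where the adjusted p was under 0.05. Values run from -2.42 for Dnajb9 to 5.54 for Derl3.

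The promoters of several of these genes share a known sequence element, shown here because 4 of the 9 folding chaperones (Hspa5, Hsp90b1, Dnajc3 and Creld2), both lectins and 3 further genes of the set hold it. The ER stress response element (ERSE) is bound by the cleaved ATF6 factor together with NF-Y. RefSeq promoters on GRCm38.p6, from 250 bases before to 50 bases after each start, were available for 28 of the 34 genes and searched on both strands for the letters CCAAT, any 9 bases and CCACG. A match was found in 9 of 28 genes (32.1%), against 37 of 27025 genes (0.137%) and 39 of 32851 promoters (0.119%) in the whole table. The 34 genes were listed for ER folding or this response, so their higher share is a description and not a test. Capitals mark the match, printed 5′ to 3′ on the strand of the gene. Where the element lies in reverse it begins with CGTGG. The Hspa5 match lies before the RefSeq start, but its window touches an exon of the count table, which begins this gene at 34771970. A shorter window is therefore printed for Hspa5.
Hspa5, chr2:34772020-34772048, plus strand: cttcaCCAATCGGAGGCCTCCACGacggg
Calr, chr8:84847055-84847113, minus strand: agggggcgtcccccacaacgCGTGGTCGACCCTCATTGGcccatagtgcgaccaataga
Derl3, chr10:75893222-75893280, plus strand: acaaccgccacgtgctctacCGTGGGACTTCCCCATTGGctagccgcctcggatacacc
Hsp90b1, chr10:86705618-86705676, minus strand: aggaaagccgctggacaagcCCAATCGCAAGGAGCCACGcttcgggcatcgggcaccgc
Hsp90b1, chr10:86705513-86705571, minus strand: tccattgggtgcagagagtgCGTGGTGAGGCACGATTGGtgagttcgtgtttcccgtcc
Canx, chr11:50325780-50325838, minus strand: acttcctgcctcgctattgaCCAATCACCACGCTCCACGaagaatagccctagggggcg
Pdia6, chr12:17266471-17266529, plus strand: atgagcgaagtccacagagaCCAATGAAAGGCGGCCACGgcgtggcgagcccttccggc
Dnajc3, chr14:118937807-118937865, plus strand: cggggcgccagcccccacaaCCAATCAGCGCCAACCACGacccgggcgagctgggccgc
Creld2, chr15:88819500-88819558, plus strand: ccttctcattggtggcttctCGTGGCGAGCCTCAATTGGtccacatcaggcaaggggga
Syvn1, chr19:6046512-6046570, plus strand: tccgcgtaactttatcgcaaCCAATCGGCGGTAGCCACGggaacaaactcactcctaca
Hsp90b1, the ER form of HSP90, held a match in each orientation. Of the 9 genes, 8 were higher in embryonic cells and Syvn1 did not pass the test, with a median log2 difference of 1.6. Of the 19 genes with a promoter and no match, 12 were higher in embryonic cells, 3 were higher in adult cells and 4 did not pass, with a median of 0.58. Outside the set, 28 genes held a match. Of these 9 were tested, 4 were higher in embryonic cells, 2 were higher in adult cells and 3 did not pass, with a median of 0.14. For scale, 31.2% of all tested genes passed toward the embryonic side and 31.7% toward the adult side. Whether the match goes with the direction of the difference was not tested, and sets of 9 genes are too small to settle it. The match is a description of these letters and was not tested as a binding site.

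A shorter related element, ERSE-II, was searched on both strands as ATTGG, any base and CCACG, and found in 12 of 32851 promoters (0.0365%), including those of Dnajb11 and Herpud1. Dnajb11 was higher in embryonic cells and Herpud1 in adult cells. The Herpud1 element lies before the start of its gene and is shown for comparison with the longer one.
Herpud1, chr8:94386357-94386407, plus strand: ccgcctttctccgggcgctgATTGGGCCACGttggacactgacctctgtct
The core of the XBP1-binding element, TGACGTGG, was in 222 promoters (0.676%) and the ATF4-binding letters TGATGNAAT in 317 (0.965%), both searched on both strands. The short letters CCACG, part of both elements and in reverse of the XBP1 core, stand in the promoters of 35.5% of all genes and of 82.1% of the 28 genes. Neither the XBP1 core nor the ATF4 letters stood in the promoters of the 28 genes within this window.

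Of the 9 folding chaperones and cochaperones, 8 were higher in embryonic cells and 1, Dnajb9, was higher in adult cells. The shares of all tested genes were 31.2% and 31.7%. Hspa5 (BiP), the HSP70 of the ER and the partner from which the sensors are released, measured 4587, 4258 and 3076 CPM in the embryonic and 2245, 2867 and 2423 CPM in the adult libraries. The lowest embryonic library, replicate 3, was still above all adult libraries. Embryonic cells were 1.58-fold higher (log2 0.66, SE 0.16, edgeR adjusted p = 0.005). Hspa5 lies on chromosome 2 at 34771970 to 34777547 (GRCm38), plus strand.

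Hsp90b1 (GRP94), which folds a narrow set of receptors and secreted proteins, differed more. It measured 1134, 1051 and 921 CPM in the embryonic and 219, 232 and 225 CPM in the adult libraries, 4.59-fold higher in embryonic cells (log2 2.20, SE 0.11, edgeR adjusted p = 1.6e-07). The groups were far apart relative to their spread. Of its exon bases, 15.7% are shared with other annotated genes, 1 of them antisense, and reads there were not counted. The ratio of Hspa5 to Hsp90b1, both per kb of exon, was 3.18 to 3.86 in the embryonic and 9.78 to 11.8 in the adult libraries.

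Sdf2l1, which works with BiP and the cochaperone Dnajb11 to keep chains from clumping, measured 177, 124 and 123 CPM in the embryonic and 26.6, 18.7 and 19.3 CPM in the adult libraries. The difference was 6.55-fold (log2 2.71, SE 0.19, edgeR adjusted p = 4.0e-06), without overlap. Dnajb11 averaged 210 ± 20.3 CPM in the embryonic and 78.5 ± 1.69 CPM in adult cells (SD, n = 3 each). Creld2, a stress-induced ER protein, was 3.27-fold higher in embryonic cells. Hyou1, the large HSP70 relative that exchanges nucleotide on BiP, was 2.60-fold higher, and Manf, a secreted BiP cofactor, was 2.49-fold higher. Dnajc3, which recruits chains to BiP, showed the smallest called difference of the group, at 1.36-fold (edgeR adjusted p = 0.015, and 0.058 without adult replicate 1).

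Dnajb9 (ERdj4) ran the other way. This J protein holds IRE1 inactive through BiP and also helps degrade misfolded chains. It measured 33.4, 30.3 and 25.8 CPM in the embryonic and 125, 165 and 191 CPM in the adult libraries. All adult libraries were above all embryonic ones, by 5.37-fold (log2 -2.42, SE 0.17, edgeR adjusted p = 2.2e-06). Per kb of exon, Hspa5 RNA was 52.6 to 61.9 times that of Dnajb9 in embryonic and 5.59 to 7.95 times in adult libraries. Dnajb9 lies on chromosome 12 at 44205897 to 44210068, minus strand.

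Both lectin chaperones, which hold chains that carry a trimmed sugar, were higher in embryonic cells. Calr (calreticulin), the soluble one, measured 1114, 910 and 931 CPM in the embryonic and 321, 301 and 350 CPM in the adult libraries, 3.04-fold apart (log2 1.60, SE 0.12, edgeR adjusted p = 1.8e-06). Canx (calnexin), the membrane-bound one, measured 643, 592 and 539 CPM against 341, 349 and 393 CPM, 1.64-fold apart (edgeR adjusted p = 0.00025). Neither gene's groups overlapped. The ratio of Calr to Canx per kb of exon was 2.51 to 2.82 in the embryonic and 1.41 to 1.53 in the adult libraries.

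Of the 5 disulfide genes, 4 were higher in embryonic cells and P4hb did not pass the test. The share of all tested genes higher in embryonic cells was 31.2%. Pdia6, a disulfide isomerase that also acts on the sensors, measured 837, 758 and 677 CPM in the embryonic and 108, 110 and 105 CPM in the adult libraries. These were separate groups, 7.04-fold apart (log2 2.82, SE 0.11, edgeR adjusted p = 4.1e-08), and Pdia6 had the smallest adjusted p of the 34 genes. Pdia4, an isomerase found in complexes with BiP and GRP94, measured 412, 355 and 321 CPM against 62.8, 62.5 and 55.3 CPM, 6.03-fold apart (edgeR adjusted p = 1.1e-07). Pdia3 (ERp57), the isomerase that works with calreticulin and calnexin, measured 1645, 1483 and 1413 CPM against 430, 456 and 429 CPM, 3.45-fold apart (edgeR adjusted p = 3.8e-07).

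P4hb (PDI), the main disulfide isomerase and a subunit of collagen prolyl hydroxylase, measured 1729, 1546 and 1435 CPM in the embryonic and 1385, 1530 and 1416 CPM in the adult libraries. The groups overlapped (log2 difference 0.12, SE 0.11, edgeR adjusted p = 0.34). Per kb of exon, P4hb RNA was 2.67 to 2.77 times that of Pdia6 in embryonic and 16.8 to 18.2 times in adult libraries. Ero1l, the oxidase that reloads PDI, measured 1070, 1324 and 1314 CPM in the embryonic and 846, 843 and 913 CPM in the adult libraries, a 1.43-fold difference (edgeR adjusted p = 0.0027). Its relative Ero1lb, named after its values were seen, went the other way, with 17.4 ± 1.85 CPM in embryonic and 36.5 ± 2.61 CPM in adult cells (SD, n = 3 each). The ratio of Ero1l to Ero1lb per kb of exon was 54.7 to 83.2 in the embryonic and 20.5 to 25.5 in the adult libraries.

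Of the 8 genes of ER-associated degradation, 4 were higher in embryonic cells, 1 was higher in adult cells and 3 did not pass. With 8 genes, these counts cannot be set firmly against the shares of all tested genes (31.2% and 31.7%). The summed level of the 8 genes was 1261 ± 113 CPM in embryonic and 1228 ± 70.1 CPM in adult cells, a ratio of 1.03. The core of the retrotranslocation complex was in the third class. Syvn1 (HRD1), the ubiquitin ligase, measured 81.2 to 102 CPM in the embryonic and 76.0 to 82.5 CPM in the adult libraries (log2 difference 0.19, SE 0.11, edgeR adjusted p = 0.14). Sel1l, its scaffold, measured 182 to 215 CPM and 161 to 206 CPM (0.07, SE 0.12, edgeR adjusted p = 0.61). Derl1, a channel protein, measured 169 to 200 CPM and 162 to 177 CPM (0.09, SE 0.10, edgeR adjusted p = 0.47). For these 3 genes the groups overlapped.

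The relatives of Derl1 differed between the groups. Derl2 measured 58.9, 56.9 and 65.2 CPM in the embryonic and 28.2, 33.0 and 32.2 CPM in the adult libraries, 1.94-fold apart (edgeR adjusted p = 4.0e-05). Derl3, which is typical of secretory cells, measured 6.57, 4.39 and 4.67 CPM in the embryonic and 0.0402, 0.0923 and 0.211 CPM in the adult libraries. It was close to undetected in adult cells, with 14 counts over the 3 adult libraries and 685 over the embryonic ones. The fitted difference was 46.4-fold (log2 5.54, SE 0.52, edgeR adjusted p = 9.9e-06), and 77.2-fold without adult replicate 3, which held 8 of the adult counts. No other gene of the 34 moved by over 1.5 times when 1 library was left out. Derl3 lies on chromosome 10 at 75893398 to 75895941, plus strand.

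The mannosidase-like proteins Edem1 and Edem2, which mark misfolded glycoproteins for removal, were both higher in embryonic cells. Edem2 measured 125, 125 and 122 CPM against 56.6, 51.6 and 53.8 CPM, 2.29-fold apart (edgeR adjusted p = 2.3e-06). Edem1 measured 228, 204 and 203 CPM against 140, 145 and 139 CPM, 1.5-fold apart (edgeR adjusted p = 0.00035). Herpud1, a membrane protein that organises the HRD1 complex and is induced by ER stress, was the exception. It measured 449, 440 and 298 CPM in the embryonic and 523, 536 and 650 CPM in the adult libraries, without overlap. Adult cells were 1.44-fold higher (log2 -0.53, SE 0.16, edgeR adjusted p = 0.02), but the adjusted p was 0.064 without adult replicate 3.

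Of the 5 sensor and factor genes, 1 was higher in embryonic cells, 2 were higher in adult cells and 2 did not pass. With 5 genes, these counts stand near the shares of all tested genes (31.2% and 31.7%). Atf6 measured 82.9, 84.5 and 79.1 CPM in the embryonic and 218, 218 and 200 CPM in the adult libraries. Adult cells were 2.58-fold higher, with narrow spread in both groups (log2 -1.37, SE 0.09, edgeR adjusted p = 1.1e-06). Its paralog Atf6b, cut in the same way but a weaker activator, measured 53.9, 53.2 and 53.2 CPM in the embryonic and 39.0, 35.7 and 37.2 CPM in the adult libraries, 1.43-fold higher in embryonic cells (edgeR adjusted p = 0.0009). The 2 paralogs stood in opposite order: the ratio of Atf6 to Atf6b per kb of exon was 0.443 to 0.474 in the embryonic and 1.60 to 1.82 in the adult libraries.

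Ern1, which encodes the sensor and endonuclease IRE1alpha, measured 15.6, 24.7 and 19.2 CPM in the embryonic and 65.4, 50.7 and 78.8 CPM in the adult libraries. All adult libraries were above all embryonic ones, by 3.28-fold (log2 -1.71, SE 0.21, edgeR adjusted p = 0.00011). Xbp1, the target of IRE1, measured 407, 324 and 439 CPM in the embryonic and 350, 302 and 337 CPM in the adult libraries. These groups overlapped (log2 difference 0.24, SE 0.13, edgeR adjusted p = 0.12), and the call was gained only without embryonic replicate 2 (adjusted p = 0.016). Counts per gene do not separate spliced from unspliced Xbp1. Eif2ak3 (PERK) measured 35.0 to 38.7 CPM in the embryonic and 28.1 to 36.3 CPM in the adult libraries (log2 difference 0.26, SE 0.13, edgeR adjusted p = 0.094, and 0.025 without adult replicate 2). Per kb of exon, the ratio of Ern1 to Eif2ak3 was 0.301 to 0.471 in the embryonic and 1.03 to 2.07 in the adult libraries.

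**Figure D3:**
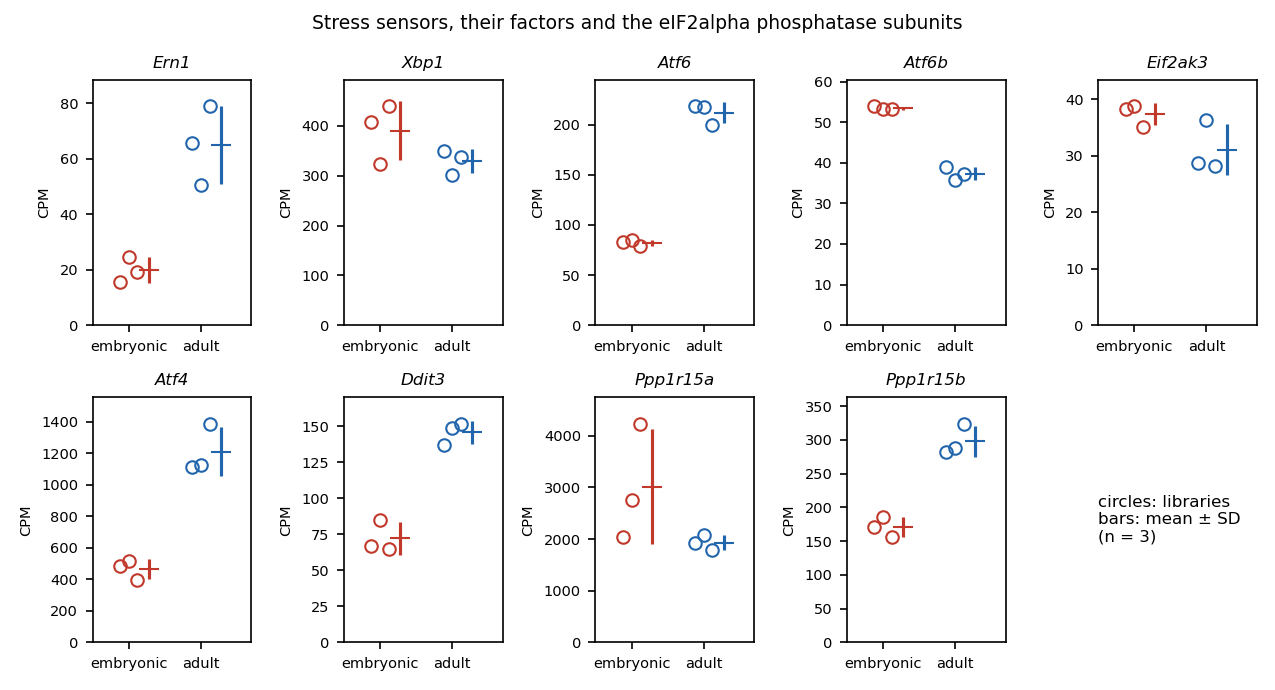
CPM of the 5 sensor and factor genes, of Atf4 and Ddit3 and of the 2 phosphatase subunits, with 1 circle per library, the mean and SD of each group of 3 beside them, and axes that start at 0. Adult circles lie above all embryonic circles for Ern1, Atf6, Atf4, Ddit3 and Ppp1r15b, the order is opposite for Atf6b, and the groups overlap for Xbp1, Eif2ak3 and Ppp1r15a.

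The 2 regulatory subunits of the phosphatase that restores eIF2alpha differed in opposite directions. Ppp1r15b (CReP), the constitutive subunit, measured 171, 186 and 156 CPM in the embryonic and 282, 288 and 324 CPM in the adult libraries, 1.74-fold higher in adult cells without overlap (log2 -0.80, SE 0.11, edgeR adjusted p = 0.00011). Ppp1r15a (GADD34), the stress-induced subunit, measured 2050, 2757 and 4238 CPM in the embryonic and 1925, 2077 and 1784 CPM in the adult libraries. Embryonic replicate 1 was below the highest adult library, and replicate 3, which also had the highest dissociation sum of its group, was far above the rest. The part of dissociation in this value was not tested. The difference was 1.56-fold (log2 0.64, SE 0.24, edgeR adjusted p = 0.042), and on the log2 scale it was 0.36 (adjusted p = 0.04) without embryonic replicate 3. The call was lost with each adult replicate left out (adjusted p = 0.078 to 0.13), with upper quartile scaling (0.059) and with a filter at 1 CPM (0.052). In the dissociation list, 9 of 16 genes were higher in adult and 1 was higher in embryonic cells. The shares of all tested genes were 31.7% higher in adult and 31.2% higher in embryonic cells.

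Of the 3 entry genes, 2 were higher in embryonic cells, too few genes to set against the 31.2% of all tested genes. Sec61a1, the pore of the translocon, measured 578, 495 and 447 CPM in the embryonic and 472, 483 and 463 CPM in the adult libraries, which overlapped (log2 difference 0.10, SE 0.11, edgeR adjusted p = 0.45). Sec61b, a small subunit of the same complex, measured 31.7, 23.5 and 31.4 CPM against 9.01, 9.88 and 8.13 CPM, 3.21-fold apart (edgeR adjusted p = 1.1e-05). Ssr1, a subunit of the translocon-associated TRAP complex, measured 341, 296 and 313 CPM against 155, 189 and 192 CPM, 1.77-fold apart (edgeR adjusted p = 0.00013). The ratio of Sec61a1 to Sec61b per kb of exon was 2.68 to 3.97 in the embryonic and 9.23 to 10.8 in the adult libraries.

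Per kb of exon, the 3 genes with the highest means in both groups were Ppp1r15a, Hspa5 and P4hb. Ppp1r15a averaged 1029 CPM per kb in the embryonic and 658 in adult cells, Hspa5 averaged 940 and 594, and P4hb averaged 549 and 505. The ratio of Ppp1r15a to Hspa5 per kb was 0.645, 0.934 and 1.99 in embryonic replicates 1 to 3 and 1.05 to 1.24 in adult libraries, so Ppp1r15a stood first among embryonic means only through replicate 3. Further down the order differed. Dnajb9 stood at place 28 in embryonic and place 9 in adult cells (16.0 and 86.0 CPM per kb), and Sdf2l1 at place 11 and place 22 (127 and 19.4 CPM per kb). Ern1 was lowest in embryonic cells, at 2.43 CPM per kb, and Derl3 was lowest in adult cells. Of the 33 pairs of neighbours in the order, the libraries overlapped for 21 in embryonic and 20 in adult cells, so most single places are not separated by their spread.

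**Figure D4:**
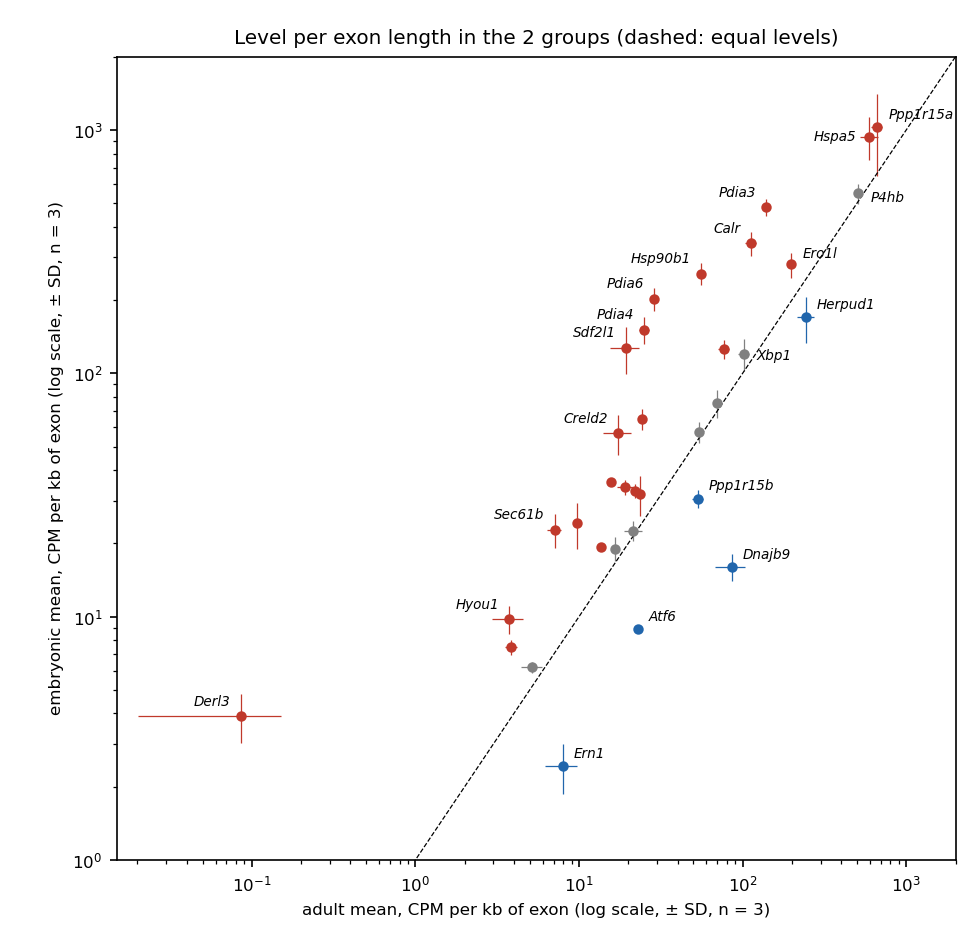
Mean CPM per kb of exon of each of the 34 genes in embryonic (vertical) against adult cells (horizontal), both on log scales, with SD over 3 libraries as bars, red for genes higher in embryonic, blue for genes higher in adult and grey for genes that did not pass the test. Ppp1r15a, Hspa5 and P4hb are at the top in both groups, and Dnajb9, Atf6 and Ern1 lie below the line of equal levels.

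The wider pathway was read from 8 lists of 100 other ER genes, of which 99 were tested, and Srp54a had 0 counts in all libraries. Of the 99, 64 were higher in embryonic cells, 16 were higher in adult cells and 19 did not pass, with a median log2 difference of 0.74. By comparison, 31.2% of all tested genes passed toward the embryonic side and 31.7% toward the adult side, with a median of -0.02. The 10 subunits of the oligosaccharyltransferase, which attaches the N-linked sugar, were each higher in embryonic cells (median 1.67). Among them were the subunits Magt1 (4.58-fold), Rpn1 (3.92-fold) and Rpn2 (3.26-fold). Of 9 genes that trim or read the sugar, 8 were higher in embryonic cells and 1 did not pass. They included Mogs, the first glucosidase (3.31-fold), Ganab, a subunit of the next (2.84-fold), and Os9, a lectin of the degradation route (2.77-fold).

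Entry and further folding genes were also mostly higher in embryonic cells. The shares of all tested genes, 31.2% on that side and 31.7% on the other, apply to each list below. Of 20 tested genes of translocation and signal peptide removal, 15 were higher in the embryonic and 2 in the adult cells. The signal peptidase subunits Spcs3 (3.52-fold) and Spcs2 (3.39-fold) and the signal recognition particle gene Srp68 (2.53-fold) were higher in embryonic cells, and the pore paralog Sec61a2 was 1.93-fold higher in adult cells. Of 16 other chaperones and isomerases, 11 were higher in the embryonic and 1 in the adult cells. Hspa13, an HSP70-like microsomal protein, averaged 841 ± 90.8 CPM against 86.6 ± 2.99 CPM (SD, n = 3 each, 9.71-fold, edgeR adjusted p = 2.1e-08), and Lman1, a cargo lectin for export from the ER, was 4.29-fold and Cnpy2 3.43-fold higher. Sdf2, the paralog of Sdf2l1, was 1.47-fold higher in adult cells (51.8 ± 3.34 and 76.3 ± 3.21 CPM), opposite to Sdf2l1. Of 14 other disulfide enzymes, 9 were higher in the embryonic and 3 in the adult cells, among them the peroxiredoxin Prdx4 (4.36-fold), the oxidase Qsox1 (3.38-fold) and the PDI relative Txndc5 (3.14-fold), with the membrane-bound Tmx4 2.92-fold higher in adult cells.

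Of 16 other degradation genes, 5 were higher in the embryonic and 6 in the adult cells (median -0.14), counts near the shares of all tested genes (31.2% and 31.7%). Herpud2, the paralog of Herpud1, was 2.06-fold higher and the ubiquitin-conjugating enzyme Ube2j1 1.84-fold higher in adult cells, while the ubiquitin ligase Rnf5 was 2.19-fold higher in embryonic cells. Of 9 genes that process or partner ATF6 and XBP1, or are relatives of ATF6, 3 were higher in the embryonic and 2 in the adult cells, again near those shares. Creb3l2, a membrane-bound factor cut like ATF6 and known for secretory capacity, measured 552, 578 and 479 CPM in the embryonic and 115, 129 and 117 CPM in the adult libraries, well apart (4.45-fold, edgeR adjusted p = 1.8e-07). Its relative Creb3l1 was 2.04-fold higher in embryonic cells. Rtcb, the ligase that joins spliced Xbp1, was 1.51-fold higher in embryonic cells, and Mbtps2, a protease that cuts ATF6, was 1.83-fold higher in adult cells.

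In the PERK branch, 3 of 5 genes were higher in the embryonic and 2 in the adult cells. With 5 genes, these counts cannot be set firmly against the shares of all tested genes (31.2% and 31.7%). Atf4, the factor translated when eIF2alpha is phosphorylated, measured 482, 517 and 396 CPM in the embryonic and 1114, 1128 and 1389 CPM in the adult libraries, 2.60-fold higher in adult cells (edgeR adjusted p = 1.4e-05). Ddit3 (CHOP), its stress-induced partner, measured 66.8, 85.3 and 64.8 CPM against 137, 149 and 152 CPM, 2.02-fold higher in adult cells (edgeR adjusted p = 5.6e-05). Neither gene's groups overlapped. Eif2s1, which encodes eIF2alpha itself, was 2.30-fold higher in embryonic cells (edgeR adjusted p = 4.0e-06). Trib3 and Chac1, the remaining genes of the list, are named after their values were seen. Both were also higher in embryonic cells, by 2.41-fold and 22.6-fold (edgeR adjusted p = 0.0041 and 0.00091), with a wide embryonic spread for Chac1. ATF4 is regulated in translation, which these RNA levels do not show.

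**Figure D5:**
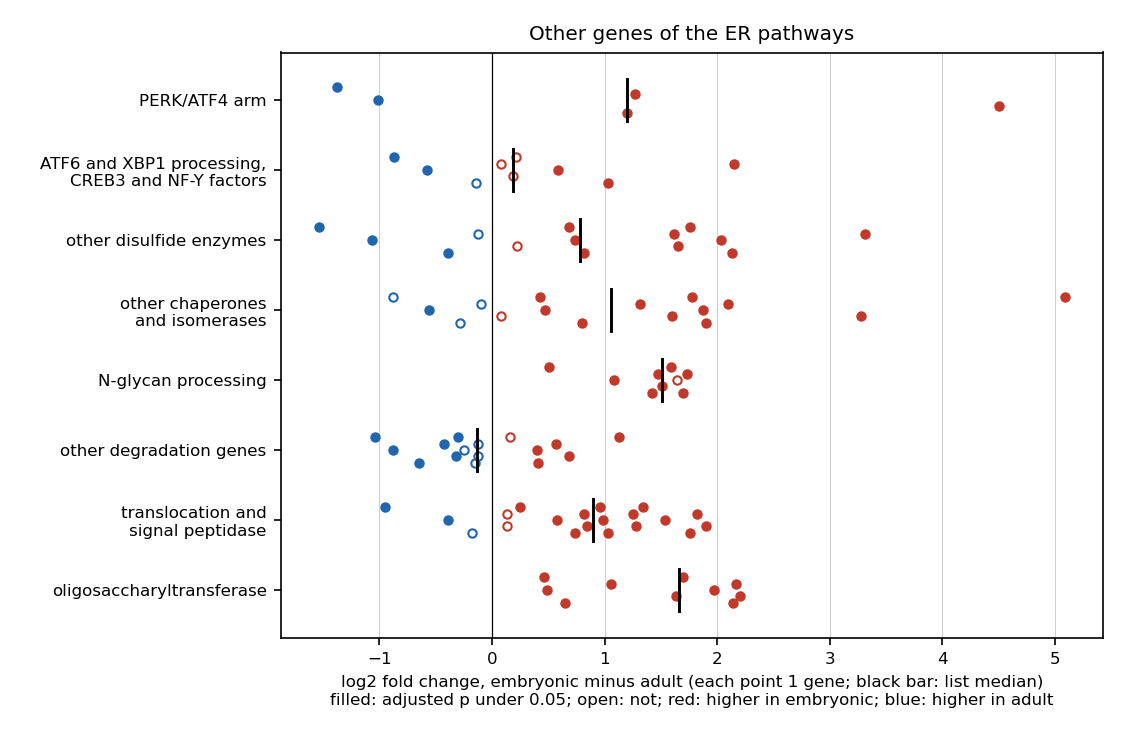
Log2 fold change, embryonic minus adult, of the 99 tested genes of the 8 other ER lists, 1 point per gene, with the median of each list as a black bar, red where embryonic and blue where adult cells were higher, filled where the adjusted p was under 0.05. All 10 oligosaccharyltransferase genes lie to the right of 0, and the other degradation genes lie on both sides with a median of -0.14.

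Because many of these genes are abundant in antibody-secreting cells, 12 markers of B and plasma cells were read beside them. Of the 7 that were tested, 3 were higher in embryonic cells, 3 were higher in adult cells and 1, Sdc1, did not pass. With 7 genes, these counts stand near the shares of all tested genes (31.2% and 31.7%). Mzb1, an ER cochaperone of antibody-secreting cells, measured 7.88, 8.19 and 9.87 CPM in embryonic libraries and had 1 count over the 3 adult libraries, against 1129 over the embryonic ones. The ratio, scaled for depth, was 1208, with a 95% counting interval of 216 to 47764. Cd79b, a chain of the B cell receptor, had 904 counts over the embryonic and 7 over the adult libraries. Prdm1, the factor known for driving plasma cell secretion, measured 8.42, 11.9 and 16.3 CPM in the embryonic and 0.684 to 0.965 CPM in the adult cells, 15.4-fold apart (edgeR adjusted p = 2.9e-06). For these 3 genes every embryonic library was above every adult one.

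Other markers of that list were higher in adult cells or close to undetected. Ighm, the antibody heavy chain, averaged 282 ± 11.9 CPM in adult cells (SD, n = 3) and made up most of the adult sum of 279 to 299 CPM, against a sum of 25.5 to 44.1 CPM in embryonic libraries. Irf4, a factor of activated lymphocytes, was 5.7-fold and Cd79a, the partner of Cd79b, 5.77-fold higher in adult cells (edgeR adjusted p = 0.0055 and 0.007). Ms4a1 and Pax5 were at 0 in all libraries, Jchain had 2 counts over the embryonic and 5 over the adult libraries, and Tnfrsf17 had 1 and 0. Cd79a, Cd79b, Irf4, Jchain, Sdc1 and Tnfrsf17 are named outside the rule for named genes, after their values were seen. The part of such cells in the folding genes was not tested. Markers of macrophages and dendritic cells summed to 24.4 to 53.2 CPM in the embryonic and 421 to 1192 CPM in the adult libraries, with none at 0 throughout. Their part in the 5 genes that were higher in adult cells was not tested.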

How the data were processed

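RNA from sorted skin mast cells was amplified as full-length cDNA (SMART-Seq v4) and tagmented (Nextera XT), per the labels' protocols. The deposited table holds raw read counts by gene, which the authors made with featureCounts 1.5.0-p1 over exons of GENCODE M9, without strand, with multi-mapping reads, reads over several genes and marked duplicates not counted, per the file headers. Alignment was to GRCm38 (mm10) with STAR, per the submitters' processing notes. Its version is not given in the sources used here. Without strand, a gene and its antisense partner cannot be told apart, and genes with shared exons are undercounted. Besides Hsp90b1, the shared part of the exon bases was largest for Ppp1r15b (11.4%), Manf (9.25%), Sec61a1 (8.16%) and Eif2ak3 (8.05%). Levels and ratios per kb were not corrected for this. Reads carry no molecular identifiers.

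Symbols came from GENCODE M21 by gene identifier (47224 of 47643 matched). Counts of all genes entered the quasi-likelihood test of edgeR 4.0.16 (R 4.3.3, TMM, filterByExpr with a minimum count of 10, robust fit, Benjamini-Hochberg over 15111 genes, threshold 0.05). CPM per kb divides CPM by the deposited exon length. Replicates of a group differed by more than counting noise (chi-square per degree of freedom 34.3 to 89.1), and each counted once. In 10 simulations of 15111 genes, 500 genes in all were changed at each fold. Of genes changed 1.5-fold 19.8% were called, of those changed 2-fold 55% and of those changed 4-fold 75.2%, and 7.83% of calls were false. Far fewer genes were changed than in the data, where 63.0% were called, which makes the adjusted p stricter. These simulated shares therefore do not carry over to this comparison. Alternatives were other scalings (RLE, upper quartile), filters, DESeq2 1.42.0, limma-voom 3.58.1, no robust estimation, a replicate block and leaving out each library. Promoters and their coordinates are RefSeq's, on GRCm38.p6.

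The members and lists were chosen with earlier results of these data known. All 34 members are reported. In each other ER list the 3 smallest adjusted p-values are named, with the smallest in the rarer direction, and for other cell types the rule allowed the 3 most abundant markers per list, printed where they bear on a result.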

Additional observations from a re-analysis of the deposited data

How the results depend on the processing

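The 34 genes gave 476 values over 14 alternative settings, and 465 kept their side of the threshold. No called gene changed direction, while Sel1l, not called, went from a log2 difference of 0.07 to -0.02 without adult replicate 1. Of the remaining values, 8 lost the call (Ppp1r15a, Dnajc3 and Herpud1) and 3 gained it (Syvn1 without embryonic replicate 2, adjusted p = 0.04, Xbp1 and Eif2ak3). For 28 genes the call held in every setting. Leaving out 1 library at a time gave 20 to 24 genes higher in embryonic and 4 to 5 higher in adult cells, and requiring at least a 2-fold difference gave 13 and 3. The other ER genes gave 1385 values, of which 37 lost and 14 gained the call. The replicate numbers did not pair the libraries (correlations of deviations -0.122, -0.0791 and -0.133), and with a replicate block the counts were 21 and 5 among the 34 genes, 63 and 15 among the other ER genes and 4379 and 4469 among all genes. Ppp1r15a then had an adjusted p of 0.065. With 3 libraries a group, a difference near 1.5-fold can be missed, so genes not called may still differ.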

Other observations

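Of the other ER genes, 2 outside the rule for named genes are given here after their values were seen. Fkbp11, an ER prolyl isomerase of secretory cells, measured 5.84, 6.40 and 7.01 CPM in embryonic and 0.181, 0.0462 and 0.342 CPM in adult cells, without overlap. The difference was 34-fold (edgeR adjusted p = 1.6e-05), and 53.4-fold without adult replicate 3. Chac1, which degrades glutathione, measured 6.21, 13.2 and 1.77 CPM in the embryonic and 0.221 to 0.392 CPM in the adult cells. It was 22.6-fold higher in embryonic cells (edgeR adjusted p = 0.00091), and 13.4-fold higher without embryonic replicate 2, with a wide spread among the embryonic libraries.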
